A study of Mus musculus with 12 samples.

Results

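The genes examined hold the cell cycle in G1 or release it: CDK inhibitors and genes tied to quiescence, read in sorted fetal liver cells of mice with and without Vav-Cre on a floxed Jag1 background. They are Cdkn1b, Cdkn2a, Cdkn2c, Cdkn2d, Btg1, Btg2, Rb1, Rbl2, Cdk6 and Ccnd2. The genes were chosen by name and found by Ensembl identifier, and all 10 had a row in both count tables, among 32285 gene identifiers for hematopoietic stem cells (HSCs) and 56980 for macrophages. All embryos were C57BL/6 for the HSC sort (the labels give no strain for the macrophages), at E14.5, and were Jag1 f/f, with floxed copies of the gene for Jagged1, a ligand of Notch receptors. The groups were VavCre+Jag1 f/f HSCs, VavCre-Jag1 f/f HSCs, Jag1ff/VavCre+ macrophages and Jag1ff/VavCre- macrophages, with 3 libraries each. The controls thus share the floxed alleles and lack only Cre, whose Vav promoter is active in blood cells and also known from endothelium. HSCs were sorted as DAPI- CD45+ Lin- cKit+ Sca1+ CD48- CD150+ cells, 2000 per library, and macrophages as CD169+ cells, 1000 to 3000 per library.

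As background, cells leave quiescence when D-type cyclins with Cdk4 or Cdk6 begin to phosphorylate the pocket proteins Rb1, Rbl1 and Rbl2. Those proteins otherwise restrain E2F transcription factors, and Rbl2 also joins the DREAM complex of resting cells. INK4 inhibitors (Cdkn2a, Cdkn2b, Cdkn2c and Cdkn2d) bind Cdk4 and Cdk6, whereas the CIP/KIP inhibitors (Cdkn1a, Cdkn1b and Cdkn1c) bind cyclin and kinase together. Adult HSCs are mostly quiescent and fetal liver HSCs mostly cycle, and Cdkn1b, Cdkn1c and Cdkn2c are among the inhibitors known to limit HSC division.

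Library totals were 51982064 to 73669941 reads in the libraries labelled Cre positive and 58235222 to 77463770 in the Cre negative HSC libraries. In macrophages the Cre positive totals of 2602934 to 5366990 reads lay below the Cre negative totals of 17230019 to 24658205, so depth differed by genotype there. Jag1 measured 10.5, 0 and 19.5 CPM (reads scaled to library size, with TMM factors) in HSC libraries labelled Cre positive and 6.53, 6.87 and 1.16 CPM in Cre negative ones, so it did not separate those groups. In macrophages it measured 0, 10.6 and 6.79 CPM in Cre positive and 52.6, 21.1 and 26.3 CPM in Cre negative libraries. The 10 HSC markers of the gate and of HSC identity were counted in every HSC library, at a sum of 1238 to 1736 CPM in libraries labelled Cre positive and 843 to 2154 CPM in Cre negative ones. The 10 sinusoidal endothelial markers, none of them at 0 in any HSC library, summed to 4969 to 7011 CPM and 5134 to 11628 CPM in the same groups. There, hepatoblast markers summed to 1952 to 2656 and 1636 to 3436 CPM, and erythroid markers to 1444 to 1885 and 1061 to 1883 CPM. Macrophage markers summed to 667 to 1738 and 1197 to 1405 CPM, and neutrophil markers to 570 to 2617 and 897 to 1128 CPM. Stellate and megakaryocyte sums reached at most 760 and 519 CPM in HSC libraries. In the macrophage sort 12 macrophage markers summed to 660, 752 and 2285 CPM in Cre positive and 675, 3788 and 3362 CPM in Cre negative libraries, below the 12291 to 16204 CPM and 9113 to 15992 CPM of the endothelial markers. The sum of the 8 stellate and mesenchymal markers did not overlap between the macrophage genotypes. It was 100, 67.1 and 57.3 CPM in Cre positive and 1631, 183 and 277 CPM in Cre negative libraries. The 1631 CPM of Cre negative replicate 1 came largely from Col1a1, Col1a2 and Col3a1 (598, 276 and 641 CPM). Singly, Col1a1, Col1a2, Lum and Des overlapped, whereas Col3a1, Postn, Pdgfrb and Dcn did not. Of all genes tested in macrophages, 11.8% were lower in Cre positive libraries without overlap. In macrophages 8 hepatoblast markers summed to 683, 438 and 641 CPM in Cre positive and 3850, 553 and 557 CPM in Cre negative libraries. Cre negative replicate 1 stood apart from the other 5. The part of other cell types in the values that follow was not tested. The labels do not say whether libraries came from separate embryos, so p-values measure only the spread between these libraries, and in bulk samples fewer cells of a type and less RNA per cell cannot be told apart.

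Promoter sequence was read for the members with an entry in the RefSeq-derived table of GRCm38.p6, 8 of 10 genes with 10 start sites. The 250 bases before each start were searched on both strands for TGGGAA, the core of the site of RBPJ (the DNA-binding partner of Notch), TTTNNCGC for E2F, TTTGAA for the cell cycle homology region bound by DREAM and TGTTTAC for forkhead factors. Over 32851 promoters of the same length, 21.6% held the RBPJ letters, 4.28% the E2F letters, 16.0% the CHR letters and 3.17% the forkhead letters. The RBPJ letters stood before Btg2, Cdkn2d, Rbl2 and 1 of the 2 starts of Cdkn2a. Btg2, Cdkn2d and Rbl2 are shown for these letters, and Btg1 as the paralog of Btg2. Capitals mark every match, and TTCCCA and TTCAAA are the RBPJ and CHR letters on the other strand. The windows are chr10:96616751-96617000 on the plus strand for Btg1, chr1:134079156-134079405 on the minus strand for Btg2, chr9:21291210-21291459 on the minus strand for Cdkn2d and chr8:91069807-91070056 on the plus strand for Rbl2.
Btg1: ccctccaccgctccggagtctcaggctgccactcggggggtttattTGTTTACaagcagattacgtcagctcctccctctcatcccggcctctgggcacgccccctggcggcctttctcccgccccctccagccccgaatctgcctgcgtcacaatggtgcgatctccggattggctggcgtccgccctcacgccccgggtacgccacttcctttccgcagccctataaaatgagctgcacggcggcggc
Btg2: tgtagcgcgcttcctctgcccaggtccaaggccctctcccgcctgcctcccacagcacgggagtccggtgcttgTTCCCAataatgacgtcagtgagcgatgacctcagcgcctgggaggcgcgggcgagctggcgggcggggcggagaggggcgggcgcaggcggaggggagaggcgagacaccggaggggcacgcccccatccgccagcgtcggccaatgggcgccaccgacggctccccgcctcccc
Cdkn2d: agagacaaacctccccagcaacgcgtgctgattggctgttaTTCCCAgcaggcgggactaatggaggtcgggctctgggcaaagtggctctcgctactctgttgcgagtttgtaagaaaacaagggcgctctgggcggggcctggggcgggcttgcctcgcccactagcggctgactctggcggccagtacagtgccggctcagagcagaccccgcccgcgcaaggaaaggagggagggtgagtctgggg
Rbl2: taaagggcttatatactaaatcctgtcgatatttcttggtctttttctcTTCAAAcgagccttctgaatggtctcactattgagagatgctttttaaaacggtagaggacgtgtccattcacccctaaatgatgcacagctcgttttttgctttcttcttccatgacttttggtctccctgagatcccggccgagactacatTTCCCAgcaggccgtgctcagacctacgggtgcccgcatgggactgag
Btg1 held the forkhead letters and Btg2 did not, and Rbl2 alone among the 10 windows held the CHR letters. The E2F letters stood before both Cdkn2a starts and before Cdk6. A match describes letters only and shows no binding.

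In HSCs, none of the genes passed the test between the genotypes. Ccnd2 had the smallest p. Its mean was higher with Cre, at 537 ± 127 against 331 ± 124 CPM in Cre negative HSCs (SD, n = 3 each), and the means of its kinase partner Cdk6 and the pocket protein gene Rbl2 were also higher. Cdkn2c and Btg1 had the lower mean. Of the 10 members 9 were tested and 0 had an adjusted p under 0.05 by quasi-likelihood in edgeR, adjusted by Benjamini and Hochberg's method over 13962 genes (background 0%), the adjusted values lying between 0.779 and 0.997. One member (Ccnd2) stood at an unadjusted p under 0.05, where the background was 6.39% (2.42% higher and 3.97% lower). Not one of the 9 separated the groups without overlap, against 15.7% of all genes tested. The log2 fold change was above 0 for 4 and below 0 for 5 members, with a median of -0.02. Over all genes 49.7% lay above and 50.3% below 0, with a median of -0.00.

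**Figure D1:**
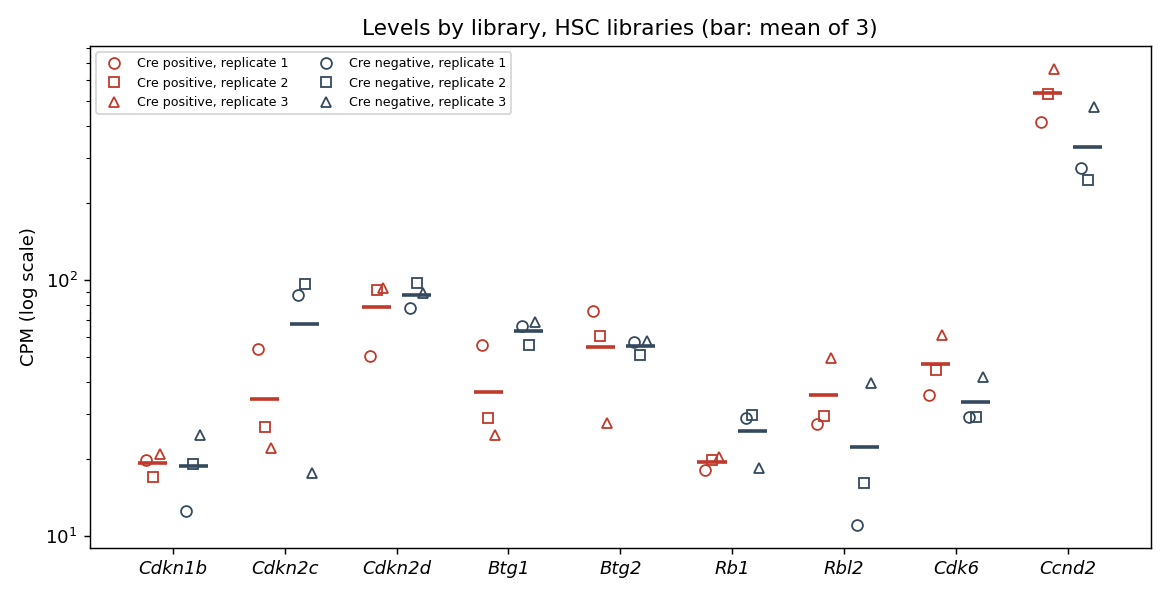
Level of the 9 tested members in each of the 6 HSC libraries, in CPM on a log axis. Points are single libraries and bars the mean of 3. Ccnd2 reached 667 CPM in a library labelled Cre positive, and Cre negative replicate 3 stood apart from the other Cre negative libraries in Cdkn2c, Rbl2 and Ccnd2.

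Among the CDK inhibitors, Cdkn1b (chromosome 6, 134920401 to 134925513, plus strand, GRCm38), which encodes p27, measured 19.95, 17.0 and 20.9 CPM in libraries labelled Cre positive and 12.5, 19.2 and 24.8 CPM in Cre negative ones. All values labelled Cre positive lay inside the Cre negative range, and the log2 fold change was 0.03 with a standard error (SE) of 0.53 and a 95% interval of -1.18 to 1.25. Cdkn2c (chromosome 4, 109660876 to 109667189, minus strand), which encodes the INK4 protein p18, measured 53.8, 26.7 and 22.1 CPM against 87.4, 96.3 and 17.6 CPM in Cre negative HSCs. Cre negative replicates 1 and 2 were the highest of the 6 and replicate 3 was the lowest, a 5.47-fold range within that group. The log2 fold change of Cdkn2c was -0.97 (SE 0.65, interval -2.47 to 0.53, edgeR adjusted p = 0.896). Cdkn2d (chromosome 9, 21288410 to 21291407, minus strand), which encodes p19 of the INK4 family, measured 50.6, 91.4 and 93.3 CPM against 77.7, 97.0 and 88.6 CPM in Cre negative libraries. Its log2 fold change was -0.16 (SE 0.31, interval -0.88 to 0.55), with the Cre positive replicate 1 the lowest of the 6.

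Cdkn2a (chromosome 4, 89274471 to 89294653, minus strand) encodes p16 and, from another first exon, the p53 regulator ARF, which a count per gene cannot tell apart. It had 0 reads in all 3 HSC libraries labelled Cre positive and 7, 0 and 0 reads in the Cre negative ones, and did not pass the filter on low counts. In macrophages it had 0 reads in all 6 libraries. The limit that 0 reads allow, taken as 3 reads, was 0.0386 to 0.0561 CPM over the HSC samples. It was 0.522 to 1.08 CPM for Cre positive and 0.138 to 0.174 CPM for Cre negative macrophages, and lower levels were not detectable. PCR copies were not told apart by molecular identifiers, so such limits cover counting error only.

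Btg1 and Btg2 encode antiproliferative proteins that bind the CCR4-NOT deadenylase. Btg1 (chromosome 10, 96617006 to 96622809, plus strand) measured 55.9, 28.9 and 24.95 CPM in HSC libraries labelled Cre positive and 66.2, 55.8 and 68.5 CPM in Cre negative ones. The groups overlapped narrowly, through Cre positive replicate 1 and Cre negative replicate 2. Its log2 fold change of -0.80 (SE 0.39) had an interval of -1.71 to 0.11 (edgeR unadjusted p = 0.0783, adjusted p = 0.820). With a library left out it ranged from -1.24, without replicate 1 labelled Cre positive (edgeR adjusted p = 0.380), to -0.59, without replicate 3 labelled Cre positive. Btg2 (chromosome 1, 134075170 to 134079120, minus strand) measured 75.9, 60.5 and 27.6 CPM against 57.4, 50.9 and 57.8 CPM in Cre negative libraries. The libraries labelled Cre positive held both the highest and the lowest value, and the log2 fold change was -0.02 (SE 0.41, interval -0.95 to 0.92), a sign that turned with the scaling. Btg1 has named pseudogenes, so its count is uncertain to the extent that counting split its reads.

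The pocket protein genes went opposite ways in their means. Rb1 (chromosome 14, 73183673 to 73325822, minus strand), the retinoblastoma gene, measured 18.1, 19.9 and 20.4 CPM in libraries labelled Cre positive and 29.1, 29.7 and 18.4 CPM in Cre negative ones (log2 fold change -0.40, SE 0.46, interval -1.46 to 0.65). Rbl2 (chromosome 8, 91070057 to 91123844, plus strand), which encodes p130, measured 27.5, 29.5 and 49.6 CPM against 11.1, 16.1 and 39.5 CPM in Cre negative libraries (log2 fold change 0.68, SE 0.58, interval -0.66 to 2.01). In both genes Cre negative replicate 3 lay within the range of the libraries labelled Cre positive and the other 2 Cre negative libraries lay outside it. Exons of Rb1 overlap annotated exons of Lpar6 and Rcbtb2, and those of Rbl2 overlap Aktip and Gm45464. The library kit does not mark strand, so such reads could not be told apart.

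Cdk6 (chromosome 5, 3341485 to 3531008, plus strand), the G1 kinase that pairs with D-type cyclins, measured 35.6, 44.4 and 61.1 CPM in HSC libraries labelled Cre positive and 29.3, 29.1 and 41.8 CPM in Cre negative ones. Its log2 fold change was 0.49 (SE 0.38, interval -0.37 to 1.36, edgeR adjusted p = 0.924), and 0.26 without replicate 3 labelled Cre positive. Ccnd2 (chromosome 6, 127125162 to 127152193, minus strand), which encodes cyclin D2, measured 413, 533 and 667 CPM against 274, 246 and 473 CPM in Cre negative libraries. Replicates 2 and 3 labelled Cre positive lay above every Cre negative library, and replicate 1 lay below Cre negative replicate 3. The log2 fold change of 0.70 (SE 0.30) had an interval of 0.01 to 1.39 before correction (edgeR unadjusted p = 0.0486), and with an adjusted p of 0.779 the difference did not pass. Exons of Cdk6 overlap the antisense gene Gm17590, and those of Ccnd2 the antisense genes 9330179D12Rik and Gm43126.

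Cre negative replicate 3 stood apart from its group in several members in HSCs. It was the lowest of the 6 libraries for Cdkn2c and lay inside the range of the libraries labelled Cre positive for Rb1, Rbl2, Cdk6 and Ccnd2. It also held the highest sum of HSC markers, at 2154 CPM against 843 and 1350 CPM in the other Cre negative libraries, and the lowest sum of endothelial markers in its group, at 5134 CPM against 11628 and 7409 CPM. Without it the log2 fold change was 1.04 for Ccnd2 (edgeR adjusted p = 0.744), 1.38 for Rbl2 (adjusted p = 0.762) and -1.43 for Cdkn2c (adjusted p = 0.744). Other libraries moved these the other way: Rbl2 was 0.35 without Cre negative replicate 1 and 0.36 without replicate 3 labelled Cre positive, and Cdkn2c was -0.62 without Cre negative replicate 2. Over all 6 libraries left out in turn, Rbl2 ranged from 0.35 to 1.38 and Cdkn2c from -1.46 to -0.62. Whether the cell makeup of that library sets these values was not tested. In the same runs Ccnd2 ranged from 0.51 to 1.04 with unadjusted p from 0.00581 to 0.158, and 0 members had an adjusted p under 0.05 in edgeR.

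**Figure D2:**
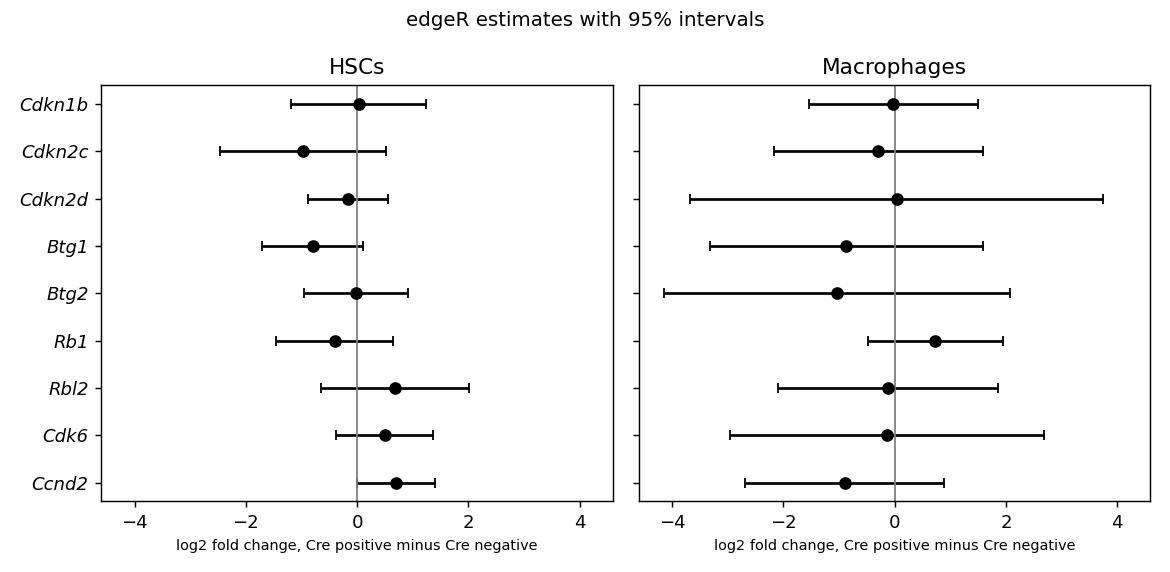
Log2 fold change of each tested member, Cre positive minus Cre negative, with its 95% interval from edgeR, in HSCs (left) and macrophages (right). Intervals span 0 for every member except Ccnd2 in HSCs (0.01 to 1.39, before correction), and are wider in macrophages, where Cdkn2d runs from -3.68 to 3.75.

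Ratios of 2 genes of like role within a library do not depend on scaling, and 4 such pairs were computed in each sort after the levels had been seen. The Btg2 to Btg1 ratio of counts was 1.36, 2.09 and 1.11 in HSC libraries labelled Cre positive and 0.867, 0.911 and 0.844 in Cre negative ones. This ratio did not overlap between the groups. Among single genes tested in HSCs 15.7% did not overlap, and the share over all gene pairs was not computed. The Rbl2 to Rb1 ratio was 1.52, 1.49 and 2.44 against 0.382, 0.543 and 2.14 in Cre negative libraries, so that only Cre negative replicate 3 overlapped. Cdkn2d to Cdkn2c ran from 0.939 to 4.22 and from 0.889 to 5.04 in the same groups. Ccnd2 to Cdk6 was the steadiest, at 11.6, 11.99 and 10.9 against 9.33, 8.45 and 11.3 in Cre negative HSCs. With log2 ratios permuted between the genotypes (exact test, two-sided), Btg2 to Btg1 reached p = 0.1, the lower bound of a design with 3 libraries a group, and an adjusted p of 0.6 over the 6 ratios tested in both sorts. The other HSC ratios gave p from 0.2 to 0.9 in the same exact test, and the 2 macrophage ratios without a count of 0 gave p = 0.4 (Rbl2 to Rb1) and 1.0 (Cdkn2d to Cdkn2c).

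**Figure D3:**
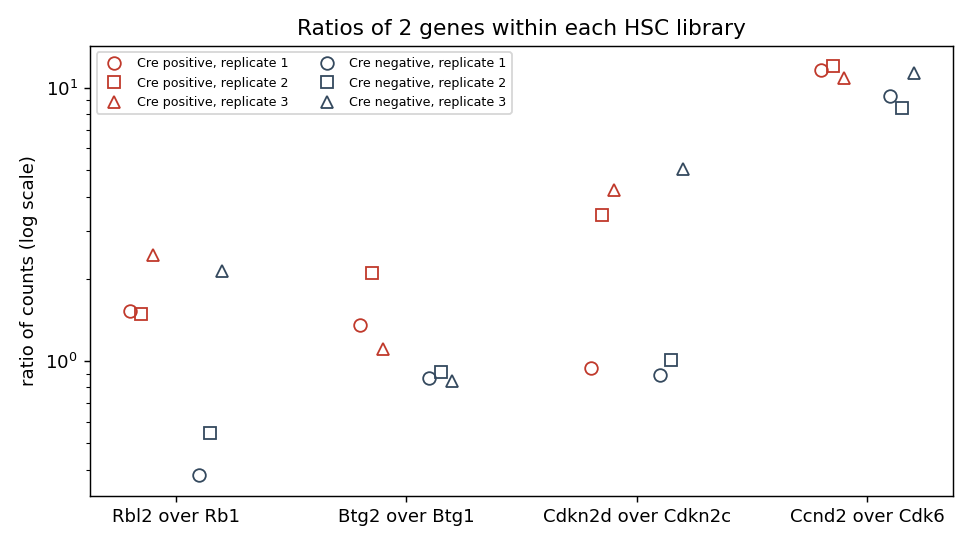
Ratio of the counts of 2 genes within each HSC library, on a log axis, Cre positive left of Cre negative. Of the 4 pairs only Btg2 over Btg1 has no overlap (1.11 to 2.09 against 0.844 to 0.911), and Rbl2 over Rb1 overlaps through Cre negative replicate 3 alone. The share of all gene pairs without overlap was not computed.

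Per kilobase of annotated exon, Ccnd2 and Cdkn2d had the highest means of the members in HSCs. In libraries labelled Cre positive the level per length was 57.1 ± 13.5 CPM per kb for Ccnd2 and 49.8 ± 15.3 for Cdkn2d (SD, n = 3), whose ranges overlapped, and Cre negative HSCs had 35.2 ± 13.2 and 55.8 ± 6.16 CPM per kb. Without Cre, the range of Ccnd2 (26.2 to 50.3 CPM per kb) overlapped those of both Cdkn2d and Cdkn2c (6.55 to 35.8 CPM per kb for Cdkn2c). Cdkn2d stood above 90.9% of genes tested in HSCs on this scale and Ccnd2 above 89.3%. Below them, Btg2 had 19.9 ± 8.99 CPM per kb in libraries labelled Cre positive and 20.2 ± 1.42 in Cre negative ones. Cdkn2c had 12.7 ± 6.38 and 24.98 ± 16.04 CPM per kb in the same groups, so it ranked under Btg2 with Cre and over it without, with overlapping ranges in both. Btg1 followed at 6.93 ± 3.19 and 12.04 ± 1.28 CPM per kb. Rbl2, Cdkn1b, Cdk6 and Rb1 formed a low group between 2.39 and 4.71 CPM per kb, in which neighbours in the order overlapped within each genotype. Cdkn2d did not overlap Btg2 in libraries labelled Cre positive. In Cre negative HSCs the ranges of Btg2 and Btg1, and of Btg1 and Rb1, did not overlap.

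In macrophages, none of the members passed either, and SEs of the log2 fold change were 0.57 to 1.76, where they were 0.30 to 0.65 in HSCs. Btg2, Ccnd2 and Btg1 had lower and Rb1 a higher mean in Cre positive libraries. Of the 10 members 9 were tested and 0 had an adjusted p under 0.05 by edgeR's quasi-likelihood test over 17806 genes (background 0%), with all adjusted values at 1.00 and 0 at an unadjusted p under 0.05, where the background was 5.42% (0.511% higher and 4.91% lower). Not one separated the groups, against 14.1% of genes tested (2.27% higher and 11.8% lower). The log2 fold change was above 0 for 2 and below 0 for 7, with a median of -0.14, where 43.9% of all genes lay above and 56.1% below 0. The median over all genes was -0.16 with TMM scaling and 0.05 on library totals, so the members' median lay close to that of all genes.

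**Figure D4:**
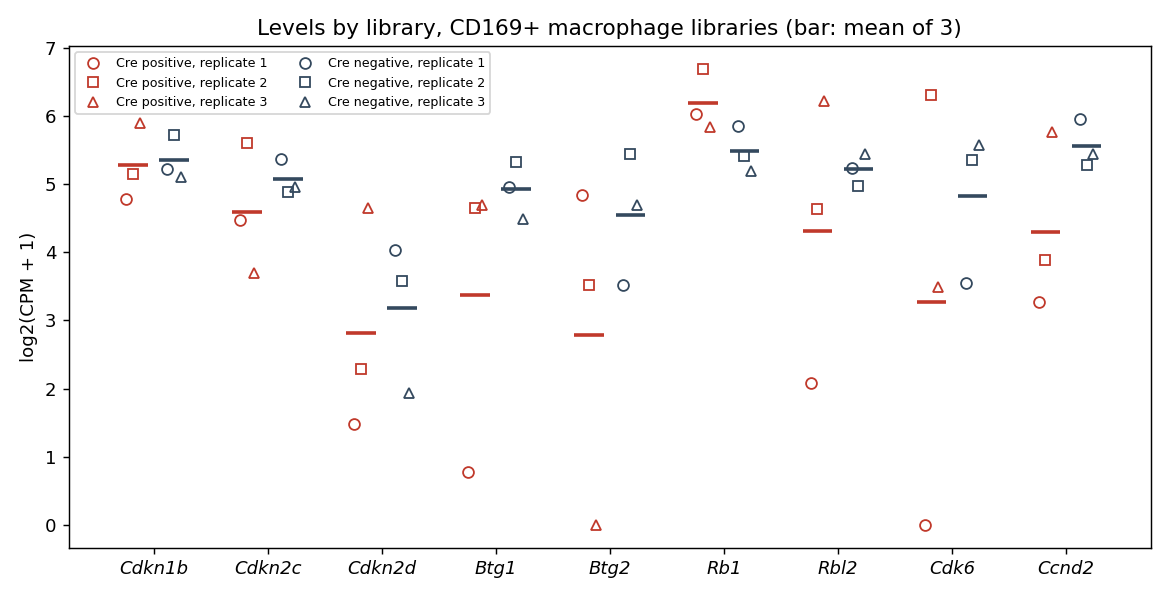
Level of the 9 tested members in each of the 6 macrophage libraries, as log2(CPM + 1). Points are single libraries and bars the mean of 3 on that scale. Cdk6 in Cre positive replicate 1 and Btg2 in Cre positive replicate 3 lie at 0, and every gene overlaps between the groups.

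Cdkn1b measured 26.6, 34.6 and 58.5 CPM in Cre positive and 36.2, 51.9 and 33.4 CPM in Cre negative macrophage libraries, with a log2 fold change of -0.02 (SE 0.72, interval -1.54 to 1.501) that turned positive under every other scaling tried. Cdkn2c measured 21.2, 47.6 and 12.01 CPM in Cre positive and 40.3, 28.5 and 30.1 CPM in Cre negative libraries (log2 fold change -0.29, interval -2.17 to 1.59), and leaving out Cre positive replicate 2 gave -1.02, whereas leaving out replicate 3 of that genotype gave -0.0049. Here the Cre negative libraries were close, within 1.41-fold. The Cdkn2d values were 1.80, 3.90 and 24.0 CPM in Cre positive and 15.3, 10.9 and 2.81 CPM in Cre negative libraries. These rest on 5, 21 and 138 reads and on 264, 234 and 61 reads, and each genotype held 1 library that went against its other 2.

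Btg1 had 2, 129 and 143 reads, or 0.720, 24.0 and 24.9 CPM, in Cre positive macrophages and 30.2, 39.1 and 21.4 CPM in Cre negative ones. Btg2 measured 27.7, 10.4 and 0 CPM in Cre positive and 10.5, 42.3 and 24.9 CPM in Cre negative libraries. The library with almost no Btg1 (Cre positive replicate 1) held the most Btg2 of its group. The library with 0 reads of Btg2 (Cre positive replicate 3) held the most Btg1 of its group, though close to replicate 2 (24.9 and 24.0 CPM). Cre negative replicate 2 held the most of both genes. The log2 fold changes were -0.87 for Btg1 (SE 1.17, interval -3.32 to 1.59) and -1.03 for Btg2 (SE 1.48, interval -4.14 to 2.08). With a library left out, Btg1 ranged from -1.36 (without Cre positive replicate 3) to -0.37 (without Cre positive replicate 1). Btg2 ranged from -2.38 (without Cre positive replicate 1) to -0.48 (without Cre positive replicate 3).

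Rb1 measured 64.4, 102 and 56.0 CPM in Cre positive and 57.0, 41.7 and 35.6 CPM in Cre negative libraries. Only Cre negative replicate 1 and Cre positive replicate 3 crossed, narrowly, and the log2 fold change was 0.73 (SE 0.57, interval -0.48 to 1.94, edgeR unadjusted p = 0.221). Without Cre positive replicate 2 it was 0.40. Rbl2 measured 3.24, 23.8 and 73.8 CPM in Cre positive and 36.7, 30.5 and 42.7 CPM in Cre negative libraries, the first of these resting on 9 reads. Cre positive libraries thus held both the lowest and the highest level of Rbl2.

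Cdk6 measured 0, 77.9 and 10.3 CPM in Cre positive and 10.7, 40.1 and 46.4 CPM in Cre negative macrophages. Ccnd2 measured 8.64, 13.8 and 53.2 CPM in Cre positive and 61.1, 38.0 and 42.7 CPM in Cre negative libraries. Cre positive replicates 1 and 2 lay below every Cre negative library and replicate 3 lay among them, with a log2 fold change of -0.90 (SE 0.85, interval -2.69 to 0.89, edgeR unadjusted p = 0.304). Without Cre positive replicate 3, whose macrophage markers summed to 2285 CPM against 660 and 752 CPM in the other Cre positive libraries, the log2 fold change of Ccnd2 was -2.14 (edgeR unadjusted p = 0.0200, adjusted p = 0.622). Without Cre positive replicate 1 it was -0.56. Cre negative replicate 1, with a macrophage marker sum of 675 CPM, held the highest Ccnd2 of the 6 libraries, at 61.1 CPM. The part of cell makeup in these values was not tested.

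The shallowest library, Cre positive replicate 1 with 2602934 reads, was the lowest of the 6 macrophage libraries for 6 of the 9 members, and Cre positive replicate 3 for 2. After thinning all libraries of the sort to that total, 0 members had an adjusted p under 0.05 in edgeR. The estimates still moved: the log2 fold change of Rb1 was then 1.21 (edgeR unadjusted p = 0.0716), against 0.73 before thinning. For Cdk6 it was -0.56, against -0.14. Per kilobase of exon the order in Cre positive macrophages began with Rb1 at 12.4 ± 4.11 CPM per kb, Cdkn2c at 10.03 ± 6.88 and Cdkn1b at 8.76 ± 3.64 (SD, n = 3), and in Cre negative ones with Cdkn2c at 12.3 ± 2.37, Btg2 at 9.43 ± 5.80 and Cdkn1b at 8.90 ± 2.18. Neighbours in the order overlapped throughout, except Rbl2 and Cdk6 in Cre negative libraries and, there, Cdk6 and Cdkn2a. Ccnd2 lay at 2.68 ± 2.59 and 5.02 ± 1.30 CPM per kb. Levels are not compared between the sorts, since the tables were scaled separately.

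**Figure D5:**
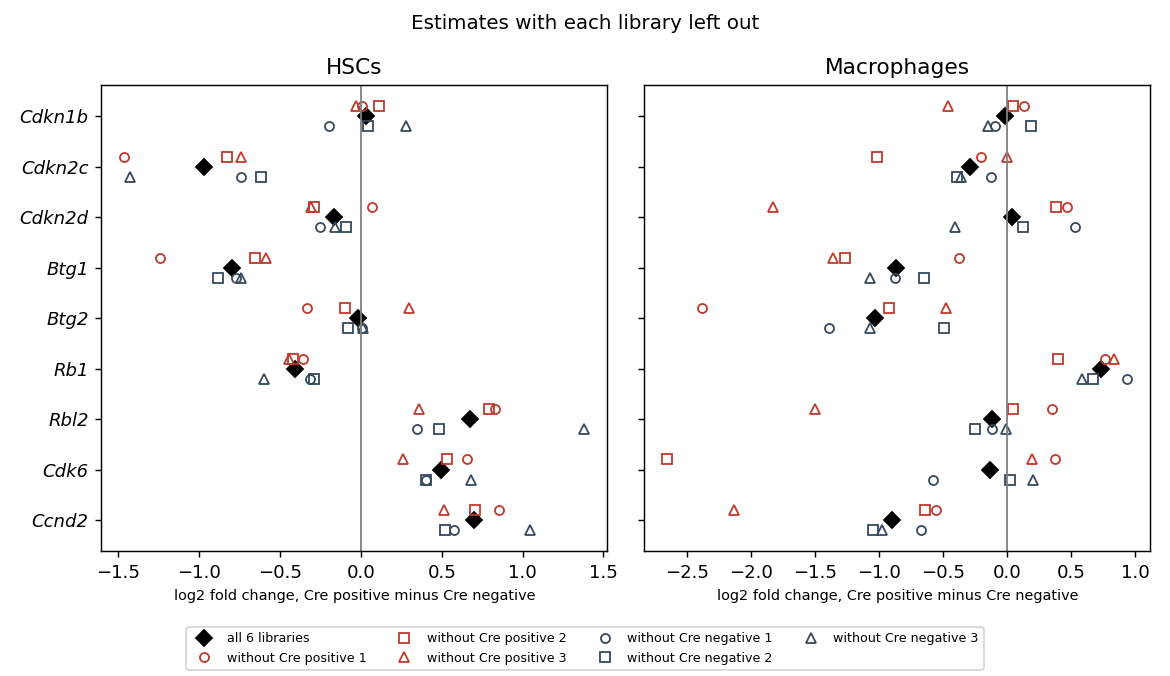
Log2 fold change of each tested member with all 6 libraries (diamond) and with each library left out, in HSCs (left) and macrophages (right). Ccnd2 stays between 0.51 and 1.04 in HSCs and between -2.14 and -0.56 in macrophages, whereas Cdk6 in macrophages runs from -2.65 to 0.38.

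The genotype effects of the sorts were compared by an interaction of genotype and sort over all 12 libraries and 20128 genes. Of the 9 members tested 0 had an adjusted p under 0.05, where 0.0696% of genes did, and 1 (Ccnd2) had an unadjusted p under 0.05, where 8.62% did. Ccnd2 had the smallest p, with a macrophage minus HSC difference in log2 fold change of -1.63 (SE 0.70, edgeR unadjusted p = 0.0318, adjusted p = 0.550), its effects being -0.90 in macrophages and 0.70 in HSCs. The difference passed without macrophage Cre positive replicate 3 alone, at -2.78 (edgeR adjusted p = 0.00877), and over each library left out it ran from -2.78 to -1.22. Over these runs 6 to 210 of all genes passed, against 14 with all 12 libraries, so the number of calls itself moved with the library left out. Rb1 differed by 1.11 (SE 0.90, unadjusted p = 0.230 in edgeR) the other way.

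Other genes of the pathway were read from 6 lists, and 0 of their genes had an edgeR adjusted p under 0.05 in either sort (background 0%). In HSCs, the other CDK inhibitors Cdkn1c, which encodes p57, and Cdkn1a, which encodes p21, had log2 fold changes of -0.45 and -0.60. Cdkn1c measured 313, 232 and 242 CPM against 375, 383 and 318 CPM in Cre negative libraries (SE of the log2 fold change 0.20) without overlap, as 9.33% of genes did in this direction. Of 7 G1 cyclins and kinases 5 had a log2 fold change below 0, where 50.3% of all genes did. Ccnd3 and Cdk4 were lower without overlap, against 9.33% of all genes. Ccnd3 measured 409 ± 39.7 and 539 ± 85.5 CPM, Cdk4 720 ± 33.0 and 840 ± 60.2 CPM, and Cdk2 135 ± 28.7 and 200 ± 44.6 CPM, libraries labelled Cre positive first (SD, n = 3). Among 18 E2F, pocket protein and MuvB genes, Rbl1, the third pocket protein gene, had 32.2, 27.4 and 36.4 CPM against 46.7, 77.1 and 65.6 CPM in Cre negative HSCs (log2 fold change -0.98, SE 0.34, edgeR unadjusted p = 0.0208, adjusted p = 0.689). Rbl1 was the 1 gene of the 18 without overlap between the groups. The next by p in that list were E2f5 (0.68) and Lin37 (0.58), as log2 fold changes.

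Proliferation genes went both ways in HSCs, with 7 of 20 above and 13 below 0 in log2 fold change (median -0.31), where 49.7% and 50.3% of all genes were. Of the 20 genes, 2 were higher and 2 lower without overlap, against 6.37% and 9.33% of all genes. Mki67, the Ki-67 gene of cycling cells, measured 286, 284 and 384 CPM in libraries labelled Cre positive against 224, 280 and 160 CPM in Cre negative ones, without overlap, as in 6.37% of genes in this direction. The replication helicase gene Mcm5 measured 187, 226 and 209 CPM against 378, 319 and 316 CPM in Cre negative libraries, lower without overlap. Its log2 fold change was -0.70 (edgeR unadjusted p = 0.00533, adjusted p = 0.689). Mcm3 measured 360 ± 70.0 against 463 ± 27.5 CPM, with overlap. Of 8 genes of p27 turnover 5 had a log2 fold change above 0, the leading ones being Cul1 (-0.65), Skp1a (0.32) and Uhmk1 (1.19). Of 15 tested BTG, TOB and CCR4-NOT genes 7 lay above 0, led by Cnot6l (0.61), Cnot11 (-0.49) and Tob1 (-1.43). The HSC median was 0.08 for p27 turnover and -0.08 for the CCR4-NOT list.

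In macrophages the same lists had medians of -0.86 (other CDK inhibitors), -0.35 (G1 cyclins and kinases), 0.16 (E2F and MuvB), -0.08 (p27 turnover), 0.05 (BTG, TOB and CCR4-NOT) and -0.29 (proliferation), against -0.16 over all genes. Tob1, an antiproliferative relative of Btg1, had 0.720, 0 and 0 CPM in Cre positive and 8.63, 5.74 and 9.22 CPM in Cre negative libraries. The groups did not overlap, as in 11.8% of genes in this direction (edgeR unadjusted p = 0.0787, adjusted p = 1.00). All 3 Cre positive values lay below the limit of 3 reads, 0.522 to 1.08 CPM in those libraries. E2f2 measured 10.9 ± 7.23 and 35.3 ± 0.371 CPM, the mitotic kinase gene Aurka 27.6 ± 4.06 and 70.7 ± 11.5 CPM, and Cdk1 74.5 ± 29.2 and 129 ± 12.5 CPM, Cre positive first (SD, n = 3). Skp1a, a subunit of the ligase that marks p27 for degradation, measured 65.5 ± 21.9 and 119 ± 13.5 CPM and Rbx1, another subunit, 14.9 ± 2.28 and 42.6 ± 21.0 CPM. The remaining leading genes of these lists had log2 fold changes of -1.40 (Cdkn1a), -0.31 (Cdkn1c), -1.70 (Ccne1), -0.35 (Cdk4), -0.55 (Cdk2), 0.90 (E2f6), -1.03 (E2f5), 0.45 (Uhmk1), -1.08 (Tob2), 0.64 (Cnot10) and -1.39 (Pcna).

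The genes whose level ran most like that of the member with the highest mean CPM were found over the 6 libraries of each sort. For Ccnd2 in HSCs these were Psmg4 (Pearson r = 0.991 of log2(CPM + 1)), Carmil3 (0.990) and Mettl15 (0.987). For Rb1 in macrophages they were 4932438A13Rik (0.972), Nrp1 (0.968) and Huwe1 (0.968). The points share genotype, depth and library preparation, and with 6 libraries and this many genes such values are a description.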

How the data were processed

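RNA was measured in 12 libraries. Each sort has a table of counts, deposited by the authors as whole reads for every gene without scaling. Per the submitters' processing notes, the HSC tools were STAR 2.7.6a for alignment and, for counting, featureCounts (Subread 2.0.1), with GRCm38 and mm10 as builds. For macrophages the notes name mm10; aligner and counter were not given in the sources used here. Libraries were made with the SMART-Seq v4 kit, per the labels' protocols.

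Names, positions and exon lengths (union of exons) came from GENCODE M21 (GRCm38). Each table was fitted separately with edgeR 4.0.16 in R 4.3.3 (filterByExpr, TMM, robust glmQLFit and glmQLFTest, Cre positive over Cre negative), and Benjamini-Hochberg adjustment over all genes tested had a threshold of 0.05. Standard errors were taken from the fold change and the F statistic, and intervals are at 95%. The interaction used the 32210 identifiers shared by the tables. The steps were checked on simulated counts. Counts of libraries of 1 group differed by 51.2 to 831 in chi-square per degree of freedom, so every library was kept as its own replicate. The members and lists were chosen with earlier results of these data known. Named genes are all members, up to 3 leading genes per list and the 3 most alike in level. Alternatives were DESeq2 1.42.0, other scalings, no filter, thinning, a replicate block and each library left out. Per-sample columns left unused numbered 0.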

Additional observations from a re-analysis of the deposited data

How the results depend on the processing

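No member passed under any alternative run within a sort. The count of all genes called was 129 with DESeq2 in HSCs, against 0 in edgeR (892 at an unadjusted p under 0.05). In macrophages it was 21 without a filter, 54 with DESeq2, 13 with the replicate block and 1 to 34 with a library left out, against 0 in edgeR (965 at an unadjusted p under 0.05). For the interaction it was 107 without a filter, 8 on library totals, 96 with the replicate block and 6 to 210 with a library left out, against 14. The cause was not tested. Whether the replicate numbers pair the libraries was not settled. Deviations of same-numbered libraries correlated at -0.03 to 0.01 in HSCs and -0.02 to 0.03 in macrophages. With the large spread between libraries of a group, such values cannot exclude pairing.

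Signs turned for several members. Their main estimates lay between -0.16 and 0.17, except Cdkn2c in the interaction, at 0.66. The Btg2 log2 fold change in HSCs was 0.0092 with RLE scaling, 0.040 on library totals, 0.00062 with upper-quartile scaling and 0.0091 in DESeq2. In macrophages Cdkn1b was 0.19 with RLE scaling, 0.19 on library totals, 0.13 with upper-quartile scaling, 0.20 in DESeq2 and 0.016 after thinning. Rbl2 was 0.10 with RLE scaling, 0.091 on library totals, 0.10 in DESeq2 and 0.088 after thinning, and Cdk6 was 0.033 with RLE scaling, 0.080 on library totals and 0.032 in DESeq2. Cdkn2d was -0.0068 without a filter and -0.80 with the replicate block. The interaction on library totals was 0.058 for Cdkn1b and 0.0035 for Btg1, and -0.51 for Cdkn2d with the replicate block. With a library left out, the HSC values ranged from -0.20 to 0.28 (Cdkn1b), -0.33 to 0.30 (Btg2) and -0.31 to 0.070 (Cdkn2d). The macrophage values ranged from -0.46 to 0.18 (Cdkn1b), -1.50 to 0.35 (Rbl2), -2.65 to 0.38 (Cdk6) and -1.83 to 0.53 (Cdkn2d). The interaction ranged from -0.43 to 0.17 (Cdkn1b), -0.48 to 0.48 (Btg1), -1.59 to 0.76 (Cdkn2d) and -0.036 to 1.15 (Cdkn2c). With the replicate block, the macrophage values were -1.54 for Btg1, -2.28 for Btg2, -2.09 for Cdk6 and -1.32 for Ccnd2, whereas Rb1 stayed above 0 at 0.71. None of these passed. The block also moved the macrophage median over all genes to -0.72, from -0.16 in the main fit. The median of the members moved to -0.87, from -0.14. The macrophage count of 34 came without Cre positive replicate 3, and the interaction count of 210 without macrophage Cre positive replicate 2. The shallow Cre positive macrophage libraries limit what could be detected there.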
